A study of Mus musculus with 10 samples.

Results

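Invariant natural killer T (iNKT) cells from mice without Id3 were compared between stage 2 and stage 1 of their maturation in the thymus. The comparison rested on 5 of the 10 arrays of the series, 3 from Id3KO stage 2 and 2 from Id3KO stage 1, grouped by their titles. All probe sets whose log2 intensity was above the table median of 5.78 on at least 2 of the 10 arrays were tested, which were 25061 of 45037 and covered 11951 genes. Both groups carried the Id3 knockout (Id3KO), came from thymi of C57BL/6 mice aged 6 weeks, and were sorted by tetramer binding, with CD24-positive and NK1.1-positive cells left out. Stage 1 cells were taken without CD44 and stage 2 cells with it, so the sort itself separates the groups by that protein. The wild-type (WT) arrays, 2 of stage 1 and 3 of stage 2, came from the same strain, age, tissue and gates and served as the reference. RNA was amplified in a two-cycle protocol before labelling. The labels call the replicates biological, without saying whether animals were pooled, and no source used here gives the kind of knockout allele.

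iNKT cells recognise lipids on CD1d through a T cell receptor of little variety. In the thymus they pass from a CD44-negative to a CD44-positive state while they acquire the programs of the NKT1, NKT2 and NKT17 subsets, which make interferon gamma, interleukin 4 and interleukin 17. Id3 is a helix-loop-helix protein that lacks a DNA-binding region. It pairs with E proteins, such as those encoded by Tcf3 and Tcf12, and keeps them from their sites on DNA, the E boxes.

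Without Id3, no gene passed the test between the stages. In limma, with Benjamini-Hochberg adjustment over the 25061 probe sets, 0 were called (0% of those tested), and the smallest adjusted p was 0.811. At an unadjusted p under 0.05 there were 1131 (4.51%), of which 466 (1.86%) were higher and 665 (2.65%) lower at stage 2. In WT the same fit called 4 probe sets (0.016%), and 2019 (8.06%) had an unadjusted p under 0.05. The 95% interval of the Id3KO stage difference was a median of 0.29 on the log2 scale to either side, and for 97.6% of the probe sets it lay within 2-fold up or down. The count for Id3KO was 0 in each of 21 other fits, with a smallest adjusted p between 0.341 and 1 and 665 to 2093 probe sets at an unadjusted p under 0.05. The fits tested different numbers of probe sets, 11951 for the lowest of these counts and 45037 for the highest. As shares of the probe sets tested, the counts ran from 3.56% to 6.65%. Where the labels do not say that replicates came from separate animals, p-values measure the spread between these samples only.

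**Figure D1:**
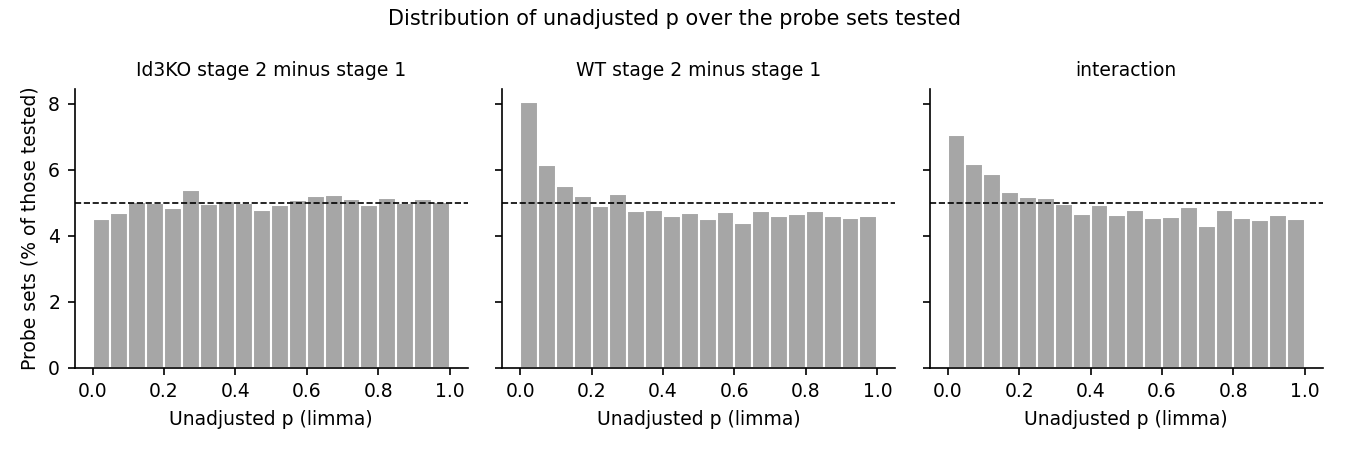
Histograms of unadjusted p from limma over the 25061 probe sets tested, as percent of probe sets per bin, for the stage difference in Id3KO, the stage difference in WT and the interaction of both. The dashed line marks the level of a flat distribution. The lowest bin held 4.51% of the probe sets in Id3KO, 8.06% in WT and 7.07% in the interaction.

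The Id3KO arrays did not sort by stage in their correlations or on the first and second principal components. Across the kept probe sets, the correlation of the log2 values was 0.979 between the Id3KO stage 1 arrays and 0.975 to 0.983 among the Id3KO stage 2 arrays. Between the stages it was 0.978 to 0.989, as high as within them. The first principal component of the Id3KO arrays, with 33.5% of the variance, placed the stage 1 arrays at -8.49 and 10.9 and the stage 2 arrays at 8.79, 16.8 and -28.0. The stages overlapped there and on the second component (28.1%). They did not overlap on the third, with stage 1 at 18.1 and 7.72 and stage 2 at 7.23, -20.5 and -12.5. Nor did they on the fourth, with stage 1 at -3.03 and -13.5 and stage 2 at 17.9, -1.63 and 0.29.

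Id3 stood at log2 6.03 and 5.99 on the Id3KO stage 1 arrays and at 6.07, 6.13 and 5.76 on the Id3KO stage 2 arrays, against 9.68 to 10.33 on the WT arrays. The Id3KO arrays were thus low for Id3 at both stages, which matches their labels. The T cell genes Cd3d (11.68 to 11.83) and Cd3g (11.44 to 11.54) and the iNKT factor Zbtb16 (9.82 to 10.11) were bright on all 5 Id3KO arrays. Klrb1c, the gene of NK1.1, had no probe set of its own, and Cd24a stayed near the table median, at 5.33 to 5.86. Some markers of B cells (Cd79a, Ms4a1), myeloid cells (Lyz2, Itgax), regulatory T cells (Foxp3) and NK cells (Ncr1) lay between 5.26 and 5.91 on those arrays. Other markers did not stay that low, such as the NK cell gene Klre1 at 5.54 to 6.31. The NK receptor gene Klra8 was far brighter, at 7.62 to 9.40. Below the table median on all 5 Id3KO arrays were 4 of 12 B cell genes and 6 of 15 myeloid and dendritic genes. The same held for 2 of 8 regulatory T cell genes and 2 of 9 NK cell genes. The summed intensity of 12 B cell genes was 2258 to 2267 at stage 1 and 2385 to 2634 at stage 2, and that of 15 myeloid and dendritic genes 2336 to 2594 and 2337 to 2531. Over 9 NK cell genes the sum was 2476 to 4547 and 2538 to 4028, and over 6 gamma delta T cell genes 1875 to 3507 and 1926 to 3772. The B cell sums did not overlap between the stages, and the other sums did. On the WT arrays the NK cell sum was lower, at 537 to 550 at stage 1 and 587 to 656 at stage 2. That of the gamma delta T cell genes was higher, at 4174 to 4243 and 4512 to 5219. Whether other cells play a part in the stage differences was not tested.

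The Id3KO arrays also differed in sex-linked genes. Eif2s3y, which lies on the Y chromosome, stood at 5.02 and 8.06 at stage 1 and at 7.97, 7.73 and 5.67 at stage 2, so that 1 array of each stage was below the table median. Xist was highest on the same arrays, at 11.64 against 10.67 at stage 1 and at 11.49 against 10.88 and 11.05 at stage 2. Leaving out both arrays, or adding a term for them to the model, again gave 0 calls, with 993 and 1313 probe sets at an unadjusted p under 0.05. Both alternatives were chosen after seeing the data.

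Among genes with the smallest unadjusted p toward stage 2, Ccr2, the receptor for monocyte chemoattractant proteins, came first. It stood at 8.75 and 8.91 on the stage 1 arrays and at 9.54, 9.44 and 9.61 on the stage 2 arrays, a difference of 0.70 ± 0.10 (log2, SE) or 1.62-fold. The stages did not overlap, which the naming rule required and which held for 4601 (18.4%) of all probe sets. The difference did not pass (adjusted p = 0.811, limma). On WT arrays Ccr2 lay between 9.70 and 9.94 at both stages, above all 5 Id3KO arrays. Its other probe sets had smaller differences of 0.31 and 0.15 in Id3KO.

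Fgf18, a fibroblast growth factor, stood at 6.10 and 6.55 at stage 1 and at 7.42, 7.42 and 7.16 at stage 2 (1.01 ± 0.16, log2, SE, adjusted p = 0.811, limma). It was dim on the WT arrays, at 5.36 to 5.79. Mapk12, the kinase p38 gamma, was higher by 1.03 ± 0.23, from 6.55 and 7.21 to 7.94, 8.16 and 7.63. Lmo2, a LIM-only protein that bridges helix-loop-helix and GATA factors, stood at 7.23 and 7.35 at stage 1 and at 7.84, 8.05 and 7.73 at stage 2 (0.58 ± 0.11). The WT arrays had Lmo2 at 6.18 to 6.50 and gave a stage difference of the other sign, -0.19. Perp, a membrane protein induced by p53, went the same way, with 0.71 ± 0.16 in Id3KO and -0.38 in WT.

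The other genes that the rule named on the higher side were Ago3, an Argonaute protein of RNA silencing (0.69), Sccpdh (0.83), Phf20l1, a reader of methylated lysine (0.63), Cdc42ep3, an effector of the GTPase Cdc42 (0.65), Fam72a (0.48), Acadl, an enzyme of fatty acid oxidation (0.46), and Znhit6, a factor of small nucleolar RNP assembly (0.41). None of the 12 passed. Further probe sets of Ago3 gave -0.12 to 0.09, those of Phf20l1 -0.16 to 0.01 and that of Sccpdh -0.0070, so these genes rest on 1 probe set each. The second probe sets of Mapk12 and Cdc42ep3 gave smaller differences of 0.14 and 0.24.

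On the lower side, Itgae, the alpha E integrin chain CD103 that binds epithelial E-cadherin, had the largest difference of a named gene. It stood at 8.08 and 7.88 at stage 1 and at 6.46, 7.02 and 7.10 at stage 2, which is 2.17-fold lower (-1.12 ± 0.24, log2, SE). The stages did not overlap in Id3KO, which the naming rule required and which held for 18.4% of all probe sets. On the WT arrays Itgae was brighter, at 10.27 to 11.03, with a stage difference of 0.40. The second Itgae probe set had the same signs, with -0.56 in Id3KO and 0.47 in WT, and the interaction of the brighter one was -1.51 ± 0.34 (adjusted p = 0.507, limma). Lgals3, the lectin galectin 3, stood at 10.80 and 10.25 at stage 1 and at 9.02, 9.42 and 9.94 at stage 2 (-1.06 ± 0.26), against 11.89 to 12.32 on the WT arrays. Neither gene passed in Id3KO.

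Of the 12 genes named on the lower side, 4 encode receptors. Ifngr2, a chain of the interferon gamma receptor, stood at 6.74 and 7.04 at stage 1 and at 6.07, 6.07 and 6.19 at stage 2 (-0.78 ± 0.14, adjusted p = 0.871, limma). Tnfrsf1b, a receptor for tumour necrosis factor, stood at 8.72 and 8.69 and then at 8.21, 8.34 and 8.08 (-0.50 ± 0.09). The groups did not overlap in either, which the naming rule required. Tgfbr1, which binds transforming growth factor beta, gave -0.58 ± 0.13, and Ptger4, a receptor for prostaglandin E2, gave -0.45 ± 0.09. Beside Itgae, Sox4 and these receptors, the rule named Ppic, a cyclophilin (-0.79), Hs2st1, a sulfotransferase of heparan sulfate (-0.65), Ppm1h (-0.65) and Ptpn14 (-0.54), both phosphatases, Fbxw7, the substrate receptor of a ubiquitin ligase (-0.52), and Adamtsl2 (-0.50). Each of the 12 failed the adjusted test, with a smallest adjusted p of 0.811. The second probe set of Ifngr2 gave 0.07 and that of Tnfrsf1b 0.0033, both dim. Those of Ptger4, Ppm1h and Fbxw7 gave 0.09, 0.09 and -0.11. Further probe sets of Hs2st1 gave -0.25 to -0.0082, and those of Ptpn14 gave -0.35 and -0.01.

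**Figure D2:**
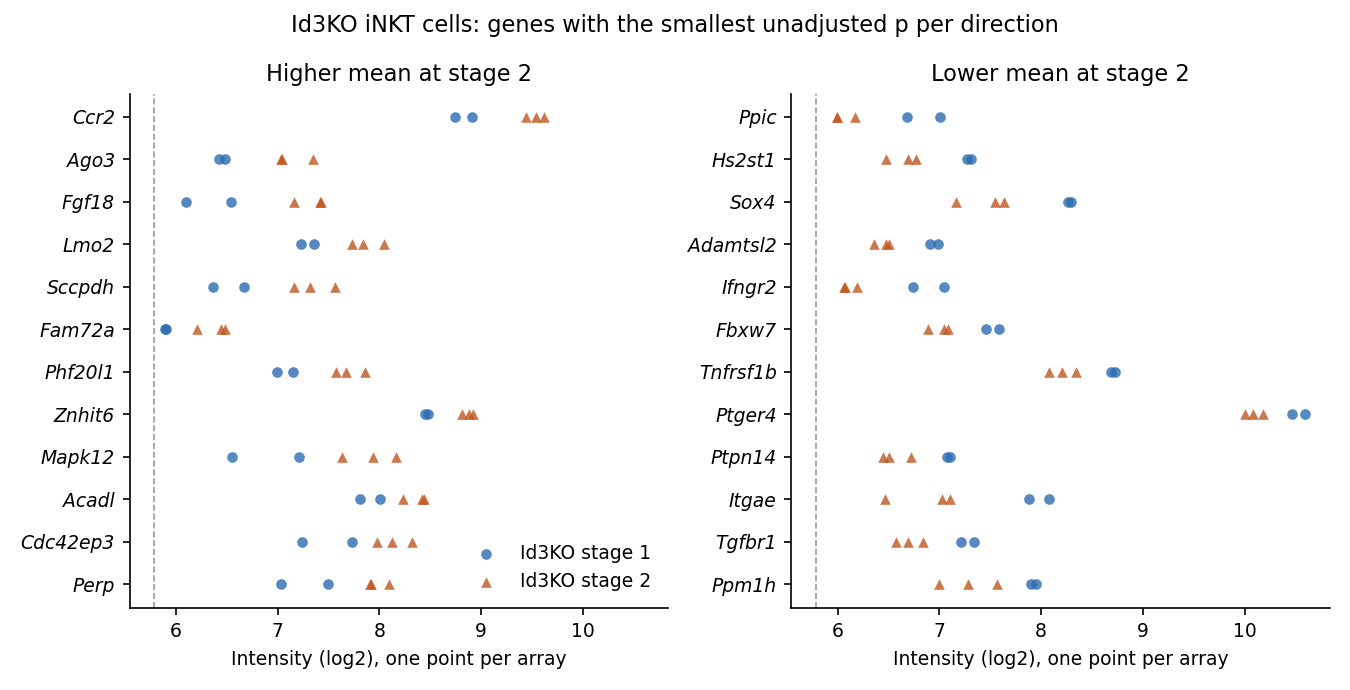
Log2 intensity of the 24 genes with the smallest unadjusted p whose Id3KO stages did not overlap, 12 higher and 12 lower at stage 2, with 1 point per array. Circles are the 2 Id3KO stage 1 arrays, triangles the 3 Id3KO stage 2 arrays, and the dashed line is the table median of 5.78. The stages are separate in every row because the rule asked for it, and 0 of the 24 genes passed the adjusted test.

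Of all probe sets, 8 (0.0319%) differed by at least 2-fold between the Id3KO stages, against 64 (0.255%) in WT. They were 2 of Cd44 (1.25 and 1.15), those of Mapk12, Fgf18, Itgae and Lgals3, 1 of Bcl11b (-1.10) and 1 without a gene name (-1.16). Bcl11b is a zinc finger factor of T cell commitment. Its brighter probe set stood at 10.70 and 10.52 at stage 1 and at 9.95, 9.38 and 10.06 at stage 2 (-0.81 ± 0.19), while in WT the stages differed by -0.12. Cd44, the hyaluronan receptor whose protein defined the gate, stood at 7.03 and 7.99 at stage 1 and at 9.17, 8.13 and 8.99 at stage 2. One stage 1 array and one stage 2 array were thus close together. The difference was 1.25 ± 0.36 in Id3KO and 2.07 ± 0.36 in WT, and the interaction was -0.82 ± 0.51 (SE, adjusted p = 0.783, limma), so a smaller Cd44 difference without Id3 was not shown.

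A few genes had stage differences in the same direction in both genotypes, without passing in either. Sox4, a high-mobility-group factor of immature lymphocytes, stood at 8.29 and 8.26 at stage 1 and at 7.54, 7.16 and 7.64 at stage 2 in Id3KO (-0.83 ± 0.14, SE). In WT it stood at 8.53 and 8.44 and then at 7.62, 7.39 and 7.61 (-0.94 ± 0.14, SE, adjusted p = 0.0959, limma). At the brightest Sox4 probe set, the one given here, the interaction was 0.11 ± 0.20. Its interval bounds the difference between the genotypes to -0.34 to 0.57. Further Sox4 probe sets gave -0.43 and -0.23 in Id3KO against -0.67 and -0.58 in WT, and a dim one gave -0.01 in both. S100a4, a calcium-binding protein of effector cells, gave 0.85 ± 0.24 in Id3KO and 0.82 ± 0.24 in WT. Ccr7, the receptor for lymph node chemokines, gave -0.60 and -0.71, and Tnfsf14, the ligand LIGHT, gave 0.59 and 0.58. Il18rap, part of the interleukin 18 receptor, gave 0.50 in Id3KO and a larger 1.05 in WT. The 5 come from genes with an unadjusted p under 0.05 (limma) and the same sign in both genotypes. Their shared direction was thus set by that choice. Among all 211 probe sets at that level in both genotypes, 94 (44.5%) had the same sign.

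The upstream sequence of Sox4 is shown because the brightest probe set of this gene had like stage differences with and without Id3. It stands beside Ccr9 and Ccr6, which passed in WT and whose Id3KO differences were close to 0. Each is the 250 bases before the annotated start, 5′ to 3′ on the strand of the gene, from RefSeq promoters of GRCm38.p6. Capitals mark the E box variants searched, CAGCTG and CACCTG with its reverse complement CAGGTG, on both strands and over 250 bases before to 50 after the start.
Sox4 (chr13:28953700-28953949, minus strand): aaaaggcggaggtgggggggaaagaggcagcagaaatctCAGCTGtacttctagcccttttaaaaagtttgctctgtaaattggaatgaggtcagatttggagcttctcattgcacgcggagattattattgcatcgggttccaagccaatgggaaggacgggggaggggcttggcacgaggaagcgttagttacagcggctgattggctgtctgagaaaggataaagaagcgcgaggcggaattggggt
Ccr9 (chr9:123766961-123767210, plus strand): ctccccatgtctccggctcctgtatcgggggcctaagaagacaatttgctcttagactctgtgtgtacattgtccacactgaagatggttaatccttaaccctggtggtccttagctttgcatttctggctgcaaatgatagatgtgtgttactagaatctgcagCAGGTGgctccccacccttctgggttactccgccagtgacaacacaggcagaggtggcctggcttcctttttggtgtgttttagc
Ccr6 (chr17:8235793-8236042, plus strand): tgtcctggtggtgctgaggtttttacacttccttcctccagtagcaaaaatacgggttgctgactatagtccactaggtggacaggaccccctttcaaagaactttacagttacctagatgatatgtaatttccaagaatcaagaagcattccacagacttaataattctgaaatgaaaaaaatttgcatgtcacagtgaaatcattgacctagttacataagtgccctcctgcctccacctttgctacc
Sox4 held 1 CAGCTG that begins 211 bases before the start, and Ccr9 1 CAGGTG that begins 85 bases before it. Neither of the 2 annotated Ccr6 promoters held a match, of which the first is shown, and none was found in those of Clnk, Ccr2, Cd44 and Fgf18. Of 32851 mouse promoters of that length, 32.9% held at least 1 of these motifs, CAGCTG in 16.3% and CACCTG or CAGGTG in 20.2%. A match is a string of letters and says nothing on binding in these cells.

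The genes that passed between the stages in WT had Id3KO differences near 0. Ccr6, a chemokine receptor typical of NKT17 cells, stood at 5.86 and 5.88 on the Id3KO stage 1 arrays and at 5.87, 5.98 and 5.77 on the Id3KO stage 2 arrays, all near the table median. On the WT arrays it stood at 6.19 and 5.96 at stage 1 and at 8.80, 9.20 and 9.76 at stage 2, where it rose by 3.18 ± 0.23 (log2, SE, adjusted p = 0.00358, limma). The Id3KO difference was 0.0047 ± 0.23, and its 95% interval of -0.52 to 0.53 leaves out the WT size. Id3KO stage 2 cells were thus as low for Ccr6 as stage 1 cells of either genotype.

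Clnk, an adaptor of the SLP-76 family, rose in WT by 1.19 ± 0.08 (SE, adjusted p = 0.00335, limma) and stood at 5.17 and 5.34, then at 5.34, 5.29 and 5.26 in Id3KO (0.04 ± 0.08). Ahr, the aryl hydrocarbon receptor, rose in WT by 1.41 ± 0.15 (SE, adjusted p = 0.0484, limma) and stood at 5.59 and 5.49, then at 5.66, 5.78 and 5.34 in Id3KO (0.05 ± 0.15). Both were at or below the table median of 5.78 on all 5 Id3KO arrays. Ccr9, the receptor for the thymic and gut chemokine CCL25, was the opposite case, since it was bright throughout. It stood at 11.32 and 11.47 and then at 11.43, 11.31 and 11.36 in Id3KO (-0.03 ± 0.11), while in WT it fell by 1.16 ± 0.11 (SE, adjusted p = 0.0178, limma), from 11.14 and 10.82 to 9.83, 9.76 and 9.87. Another bright Ccr9 probe set gave 0.0037 in Id3KO and -1.08 in WT. Each Id3KO array, of either stage, thus had more Ccr9 signal than any WT array.

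The difference between the genotypes was itself tested as an interaction, Id3KO stage difference minus WT stage difference. In limma 0 of 25061 probe sets were called (0%), with 1772 (7.07%) at an unadjusted p under 0.05. The smallest adjusted p was 0.0644, for Ccr6 (-3.18 ± 0.33, SE) and Clnk (-1.15 ± 0.11, SE). With 1 probe set per gene or with array weights both passed (adjusted p = 0.0222 and 0.0355, limma). Clnk also passed with no filter or with an intensity trend, and Ccr6 without WT stage 2 replicate 1 or replicate 3. Ccr9 gave 1.14 ± 0.15 (adjusted p = 0.261), Ahr -1.35 ± 0.21 (0.377), and Socs3, an inhibitor of cytokine signalling, -1.73 ± 0.27 (0.377), all in limma and not passing.

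The rule named further genes for the interaction without a call. Those lower in the Id3KO difference were Mturn (-0.73), Hs2st1 (-0.93), Pik3r5, a regulatory subunit of phosphoinositide 3-kinase gamma (-0.90), and Ptpn22, a phosphatase of antigen receptor signalling (-0.96). Those higher were Nup37, a nuclear pore protein (0.94), Rnpc3, a protein of the minor spliceosome (0.84), Lnpk (0.80), Lmo2 (0.77), Znhit6 (0.72), Lhpp (0.68) and the tetraspanin Cd81 (0.66). Nup37 stood at 7.95 and 7.99, then at 8.38, 8.59 and 8.31 in Id3KO, and at 8.18 and 8.38, then at 7.76, 7.997 and 7.65 in WT. The stages were thus apart in opposite directions for Nup37, a pattern that the choice by smallest interaction p favours.

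The WT calls depended on single arrays and on the fit. None of the 4 was called with only the WT arrays in the fit, where Myo1f and Nkg7 were, or with the replicate number as a block. With both Id3KO arrays low in Eif2s3y left out, Ccr6, Ccr9 and Ahr were lost and Clnk was called. The call of Ahr was also lost when arrays were centred on their medians or no filter was set. The WT count was 0 without either WT stage 1 array, 2 without either Id3KO stage 1 array, 7 without Id3KO stage 2 replicate 2 and 11 without WT stage 2 replicate 1. With each array left out in turn, the size in WT stayed within 2.93 to 3.41 for Ccr6 and 1.17 to 1.21 for Clnk.

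**Figure D3:**
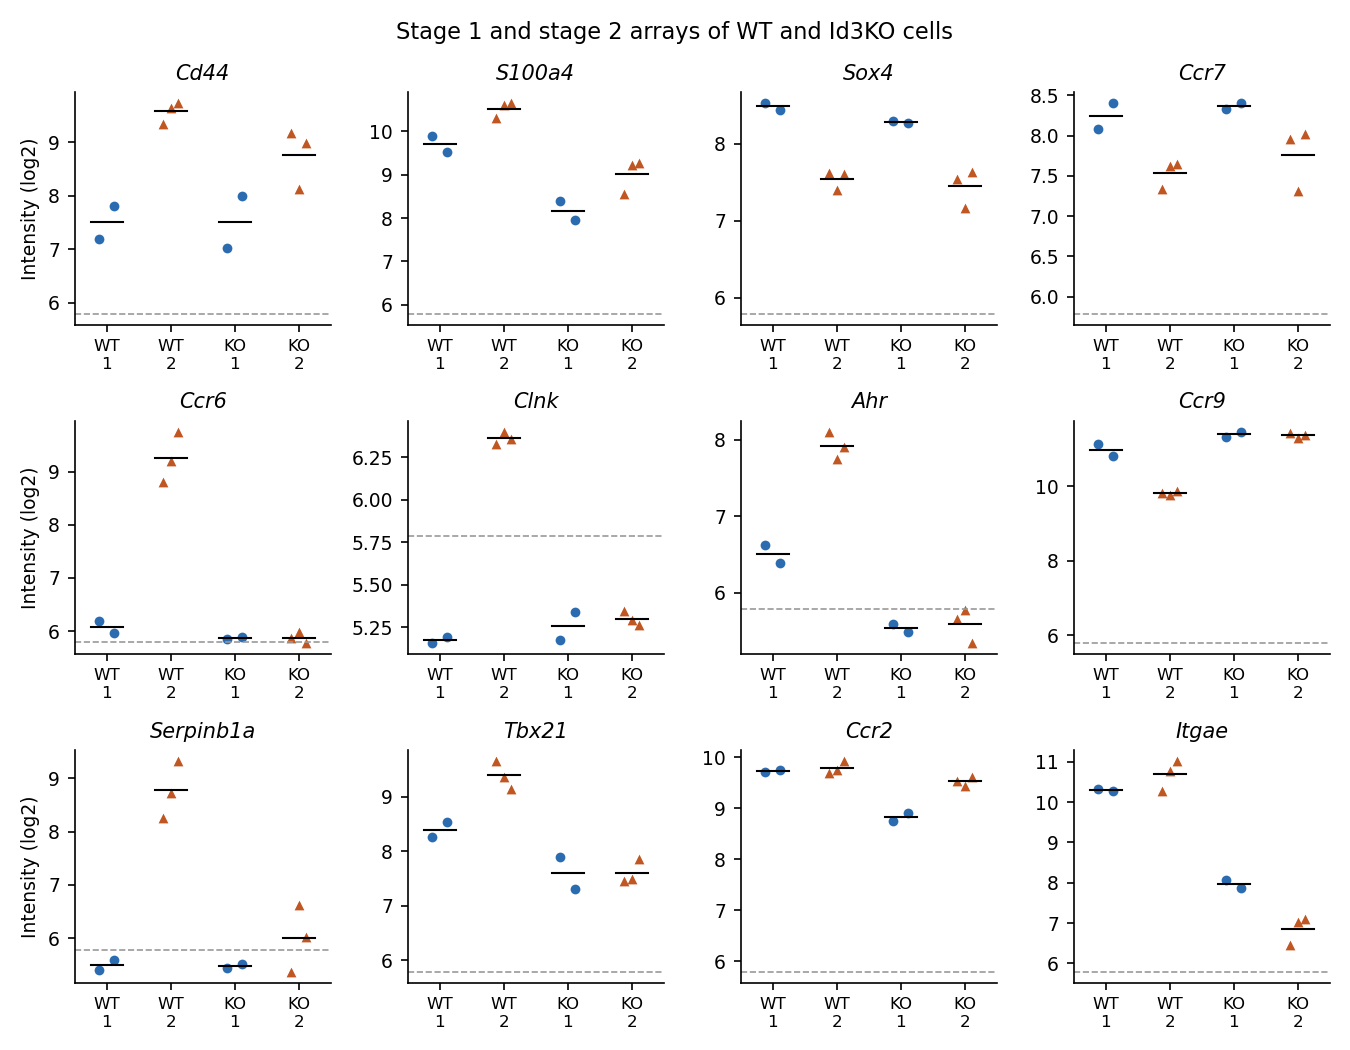
Log2 intensity of 12 genes on each array of WT and Id3KO (KO) at stage 1 (circles) and stage 2 (triangles). Short lines are group means, the dashed line is the table median of 5.78, and each panel has its own scale. In the top row the stages are apart in both genotypes, while for Ccr6, Clnk and Ahr the 5 Id3KO arrays stay low and for Ccr9 they stay high. In Ccr2 and Itgae the stages are apart in Id3KO, as the rule that named them asked.

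Across all 25061 probe sets the stage differences of Id3KO and WT, which share no array, had a Pearson correlation of -0.04 and a Spearman correlation of -0.07, and 47.7% had the same sign. Probe sets are not independent replicates, so this is a description. It depended on the Id3KO stage 1 arrays: the Pearson correlation was 0.22 without replicate 1 of that group and -0.25 without replicate 2. Of 211 probe sets with an unadjusted p under 0.05 in both genotypes, 94 (44.5%) had the same sign. Of the 64 that differed at least 2-fold in WT, all 64 had a smaller difference in Id3KO, 40 of the same sign, and the WT size lay outside the 95% interval of Id3KO for 53. Those 64 were chosen by their size in WT.

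**Figure D4:**
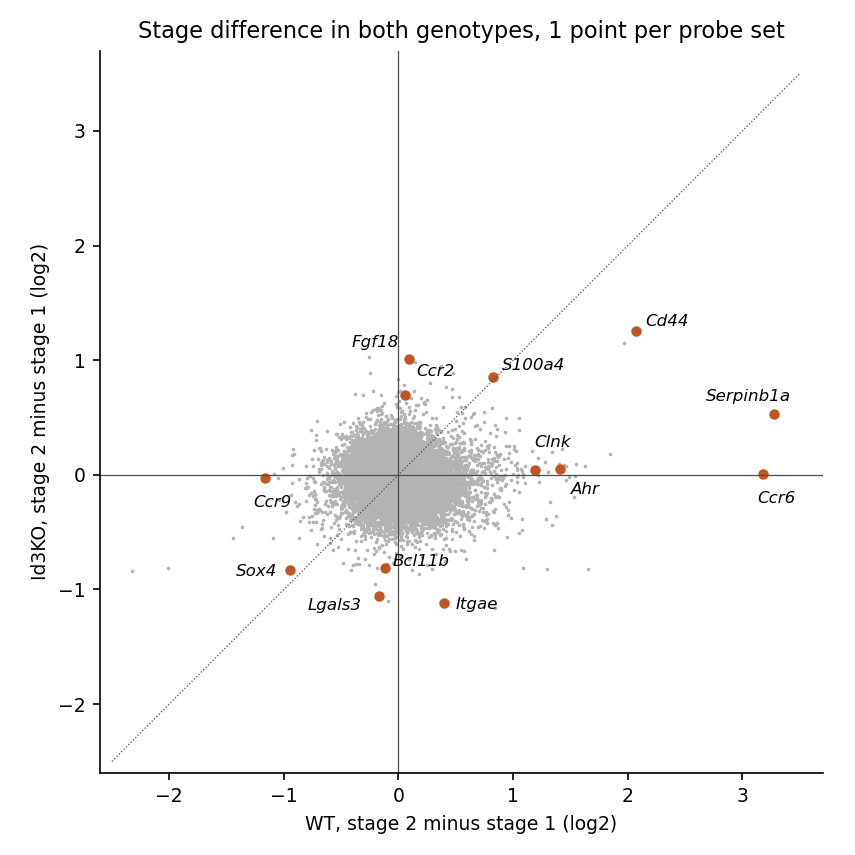
Stage 2 minus stage 1 in WT (horizontal axis) and in Id3KO (vertical axis), both on the log2 scale, with 1 point for each of the 25061 probe sets. Named genes are marked in colour and the dotted line marks equal differences. Cd44, S100a4 and Sox4 lie away from 0 on both axes, Ccr6, Serpinb1a, Ahr, Clnk and Ccr9 mainly along the WT axis, and Fgf18, Ccr2, Bcl11b, Lgals3 and Itgae along the Id3KO axis.

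Of 409 genes that the lists held among the probe sets tested, 0 were called in Id3KO (0%, as for all probe sets), and 17 were higher and 21 lower at an unadjusted p under 0.05, which is 9.29%. Over all 11951 genes with 1 probe set each, 267 were higher and 348 lower at that level, 5.15%, and the median was -0.00055 in Id3KO and -0.02 in WT. Since the lists were chosen with earlier results of these data known, their larger share is not a test of the listed genes. In bulk sorted cells, fewer cells of a subset and less RNA per cell cannot be told apart.

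Of 15 NKT17 genes 11 were above 0 and 4 below in Id3KO, with 0 called and a median of 0.08, against 0.95 in WT. The Id3KO median was -0.0019 without stage 2 replicate 2 and 0.16 without stage 2 replicate 3. Serpinb1a, a protease inhibitor, stood at 5.45 and 5.51, then at 5.36, 6.62 and 6.03 in Id3KO (0.53 ± 0.37), and at 5.40 and 5.59, then at 8.26, 8.72 and 9.33 in WT. Replicate 2 of Id3KO stage 2 was the highest Id3KO array for Serpinb1a and also for Il17re (7.31 against 6.53 to 6.63), a receptor chain for interleukin 17C. Il1r1, the interleukin 1 receptor, lay between 6.06 and 6.51 on all Id3KO arrays, with a difference of 0.08, against 1.46 in WT. Sdc1, the proteoglycan syndecan 1, was at 6.65 and 6.15 and then at 5.95, 5.42 and 5.36, so that the Id3KO difference of -0.82 was opposite to the 1.66 of WT. Neither passed.

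Of 24 NKT1 and NK receptor genes 13 were above 0 and 11 below in Id3KO, with 0 called and a median of 0.0037, against 0.53 in WT. The Id3KO median was -0.11 without stage 1 replicate 2 and 0.15 without stage 1 replicate 1. Tbx21, the transcription factor T-bet, stood at 7.89 and 7.30 at stage 1 and at 7.46, 7.49 and 7.85 at stage 2. The stages overlapped, and the difference was 0.0067 ± 0.21 with a 95% interval of -0.48 to 0.49, against 0.99 in WT. Gzmb, granzyme B, lay between 5.83 and 6.05 on the Id3KO arrays (-0.04 ± 0.13), against 0.85 in WT. Klrd1, the lectin receptor CD94, gave -0.0086 ± 0.25 against 1.54 in WT. Gzma, granzyme A, was bright at both Id3KO stages, at 11.71 and 10.73 and then at 10.91, 11.59 and 10.999. On the WT arrays Gzma lay between 6.43 and 7.51. Klra8, the receptor Ly49H, was at 9.40 and 8.43 and then at 7.62, 8.45 and 8.09 (-0.86 ± 0.31), and Eomes, a transcription factor of NK cells, at 7.36 and 6.63 and then at 5.80, 6.37 and 6.69 (-0.71 ± 0.26). Both overlapped between the stages, and a second Eomes probe set, at -0.54, did not. On the WT arrays Klra8 lay between 5.28 and 5.83 and Eomes between 5.59 and 5.75, near the table median. Klra7 of the same list had its highest Id3KO arrays at stage 2, with 7.09 and 7.05 and then 7.91, 7.945 and 6.99. Its stages overlapped as well, and its WT arrays lay between 5.01 and 6.19. Of 7 NK cell genes tested, 2 were above 0 and 5 below in Id3KO. The summed intensity of the NK cell genes was 537 to 656 on the WT arrays.

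**Figure D5:**
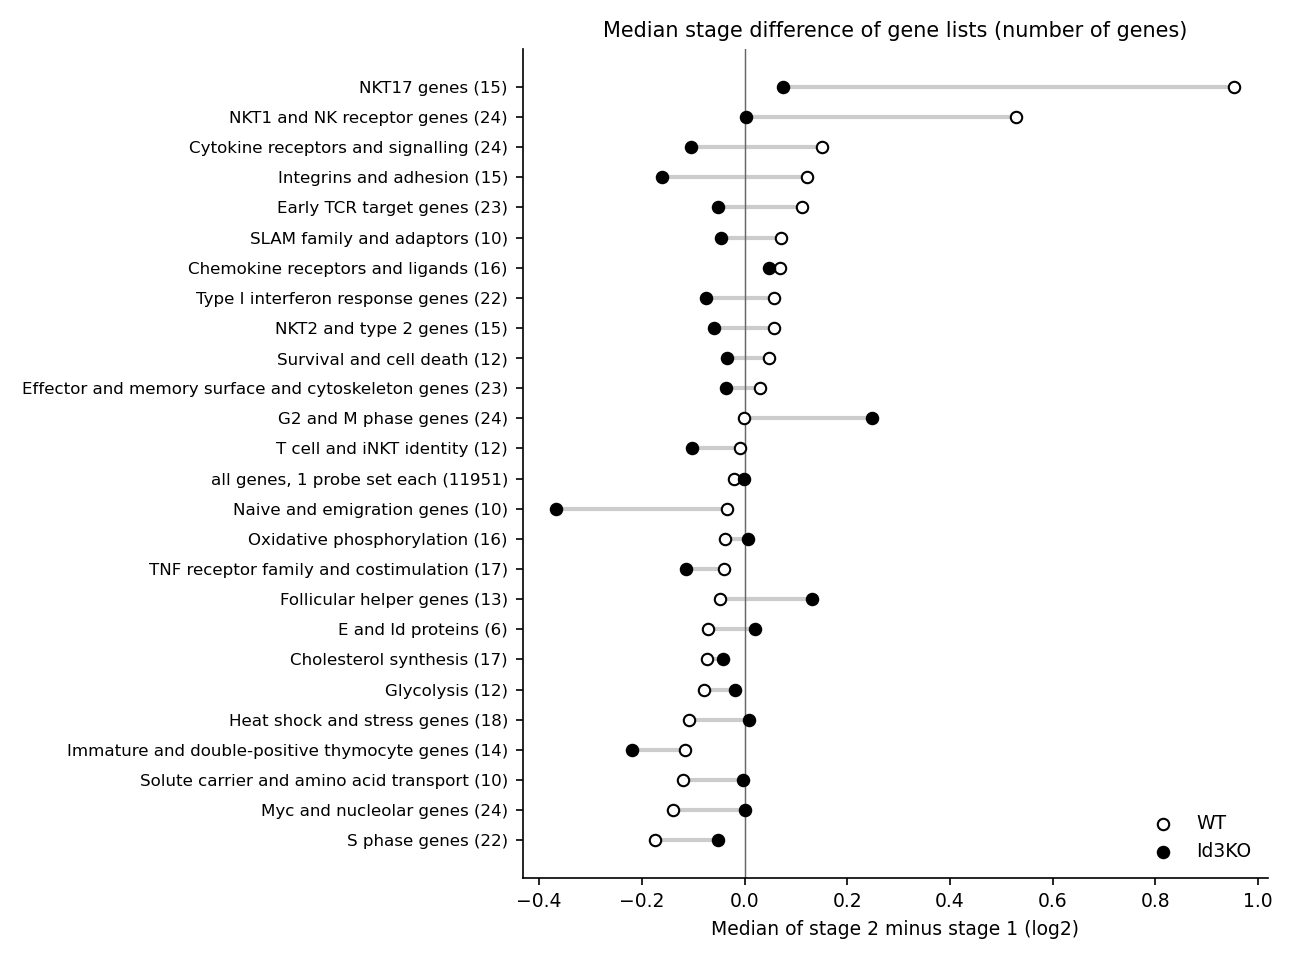
Median stage difference (log2) over the genes of each list, for WT (open) and Id3KO (filled) with the number of genes in parentheses. The medians of the NKT17 and NKT1 lists are 0.95 and 0.53 in WT and 0.08 and 0.0037 in Id3KO, and the list of naive and emigration genes has the lowest Id3KO median, -0.37.

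Genes of naive cells and of emigration had the lowest median in Id3KO, -0.37 over 10 genes against -0.03 in WT. Of the 10, 9 were below 0, 5 of them without overlap, and 0 were called. Over all 11951 genes, 1136 were lower at stage 2 without overlap in Id3KO. The list was chosen with earlier results of these data known. The median was -0.16 without Id3KO stage 2 replicate 2. Klf2, a factor that drives emigration genes, stood at 9.51 and 9.43 at stage 1 and at 9.24, 8.93 and 8.90 at stage 2 (-0.45 ± 0.15). Ccr7 stood at 8.33 and 8.40 and then at 7.96, 7.31 and 8.01, and S1pr1, the receptor that guides exit from the thymus, at 6.99 and 7.10 and then at 6.83, 6.22 and 6.95. Both had their lowest array in replicate 2 of stage 2. Of 14 immature and double-positive thymocyte genes 11 were below 0, with a median of -0.22 (-0.13 without Id3KO stage 2 replicate 2) against -0.12 in WT, and Sox4 and Bcl11b had the largest differences.

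Follicular helper genes had a median of 0.13 over 13 genes, 11 above 0 and 0 called, against -0.05 in WT. The Id3KO median was 0.04 without stage 1 replicate 1 and 0.21 without stage 2 replicate 3. Sostdc1, a secreted signalling inhibitor, stood at 5.91 and 5.87 at stage 1 and at 6.95, 6.55 and 6.33 at stage 2 (0.72 ± 0.18), without overlap, while its dimmer probe set gave 0.32 and overlapped. Tox2, a nuclear factor of helper cells, gave 0.44, Cd200, an inhibitory ligand, 0.32, and Bcl6, the factor of follicular helper fate, 0.33. The NKT2 and type 2 list had a median of -0.06 over 15 genes (-0.15 without Id3KO stage 2 replicate 3), and Il13 stood at 6.995 and 7.20, then at 6.87, 6.64 and 6.86 (-0.31 ± 0.13).

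Among early targets of the antigen receptor the members differed both ways, with a median of -0.05 over 23 genes. Spry2, an inhibitor of the ERK pathway, stood at 7.18 and 6.72 and then at 7.49, 7.89 and 7.65 (0.73 ± 0.18). Its relative Spry1 gave 0.27. Nr4a3, an orphan nuclear receptor, stood at 6.88 and 7.01 and then at 6.60, 6.33 and 6.38 (-0.50 ± 0.11). Neither Spry2 nor Nr4a3 overlapped between the stages, and neither passed.

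G2 and M phase genes had 21 of 24 members above 0 in Id3KO and a median of 0.25, against -0.00095 in WT, with 0 called and 0 at an unadjusted p under 0.05. Their mean level, relative to the mean of each gene over all arrays, was -0.34 and 0.02 on the Id3KO stage 1 arrays and 0.30, 0.40 and -0.44 on the Id3KO stage 2 arrays. The stages overlapped, and the low Id3KO array of each stage was the one with little Eif2s3y signal. On the WT arrays the mean level was -0.32 and 0.33 at stage 1 and 0.31, 0.34 and -0.61 at stage 2. There the low array of each stage had the most Eif2s3y signal, 8.11 and 8.30. The Id3KO median was 0.06 without Id3KO stage 1 replicate 1, 0.45 without Id3KO stage 2 replicate 3 and 0.33 without both. Whether sex composition plays a part in it was not tested.

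Over the 6 genes of E and Id proteins the median was 0.02. Id2, the related inhibitor, stood at 10.09 and 9.96 at stage 1 and at 10.12, 9.96 and 10.62 at stage 2 in Id3KO. The E protein genes Tcf3 (8.44 and 8.26, then 8.10, 8.10 and 8.28) and Tcf12 (9.02 and 8.90, then 8.98, 8.59 and 8.93) overlapped between the stages. Cytokine receptor and signalling genes had 17 of 24 members below 0 (median -0.11), integrin and adhesion genes 11 of 15 (-0.16), and TNF receptor family and costimulation genes 12 of 17 (-0.11). With each array left out these medians ranged from -0.20 to -0.06, from -0.22 to -0.07 and from -0.14 to -0.04. Genes of oxidative phosphorylation (0.01), heat shock (0.01), glycolysis (-0.02), S phase (-0.05), cholesterol synthesis (-0.04), the Myc program (-8.3e-05) and the type I interferon response (-0.07) had medians closer to that of all genes. With each array left out, the interferon median ranged from -0.19 to -0.0034. That of cholesterol synthesis ranged from -0.13 to -0.01 and that of S phase from -0.14 to -0.01. Below 0 were 15 of 22 interferon, 12 of 17 cholesterol and 16 of 22 S phase genes. Fcer1g, the signalling chain shared by receptors of NK and myeloid cells, stood at 6.12 and 6.23 and then at 6.77, 7.70 and 7.01 (0.98 ± 0.23) and did not pass. Tyrobp, the partner chain of the same cells, stayed between 5.50 and 5.66.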

How the data were processed

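Gene expression was measured on 10 Affymetrix arrays. The authors deposited probe set intensities on a linear scale, normalized with RMA per the submitters' processing notes, whose version is not stated. Intensities spanned 29 to 15399, and array medians were 54.8 to 55.5. The plan had assumed log2 values, so log2 was taken here. Arrays give no count, and their number limits the precision. The 4 groups entered a single limma model (3.58.1, R 4.3.3), which gave 6 residual and 2.80 prior degrees of freedom. Tests were two-sided, given Benjamini-Hochberg adjustment over all probe sets tested, and called at an adjusted p under 0.05. Errors are the moderated standard errors.

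The platform annotation named a single gene for 20942 of the probe sets tested, more than 1 for 593 and none for 3526. The probe set of highest mean stood for a gene. Named were, per direction, the 12 (Id3KO), 10 (WT) and 8 (interaction) genes with the largest called change or else the smallest p, gene models left out, with Id3 and the sort markers, and members of 33 gene lists as examples. For the stage differences the arrays of both stages could not overlap. Genes named among the 8 probe sets past 2-fold were chosen after their values were seen. The members and lists were chosen with earlier results of these data known. The fit was tested on simulated data. Alternatives were centring, quantile normalization, filters, an intensity trend, array weights, the arrays compared alone, a replicate block, 1 probe set per gene, a 2-fold minimum, each array left out, and both handlings of the sex-linked difference, added after the data were seen.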

Additional observations from a re-analysis of the deposited data

How the results depend on the processing

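The Id3KO stage difference kept 0 calls in every alternative run. The WT count, 4, was 8 after a further quantile normalization, 8 with the stricter filter, 9 with an intensity trend, 42 with array weights, 2 with only the arrays compared (Myo1f and Nkg7, none of the 4), 8 with 1 probe set per gene, 2 with both arrays low in Eif2s3y left out, 8 with a term for them, and 0 to 11 with each array left out. The interaction count, 0, was 1 with no filter, 1 with an intensity trend, 2 with array weights, 2 with 1 probe set per gene, and 0 to 1 with each array left out. With the replicate number as a block, the count was 0 in Id3KO, 0 in the interaction and 0 in WT. Same-numbered arrays deviated from their group means with correlations of 0.05 and 0.12 in WT and -0.19 and -0.04 in Id3KO. With only 2 stage 1 arrays per genotype, their deviations mirror each other. These correlations thus cannot decide whether the numbers pair the arrays. The correlation of the stage differences ranged from -0.25 to 0.22 with each array left out and was 0.19 with both arrays low in Eif2s3y left out. The stage difference of Id3 in Id3KO, -0.02, turned to 0.0017 with array weights, 0.0898 with the replicate block, 0.11 with both arrays low in Eif2s3y left out, 2.4e-05 without Id3KO stage 1 replicate 1 and 0.0898 without Id3KO stage 2 replicate 3. With each array left out it ranged from -0.0928 to 0.0898, within its standard error of 0.14. No other gene changed sign in the comparison that named it. The cause of these shifts was not tested. Signal over background is not given for these arrays, so how far dim probe sets such as those of Ccr6 and Ahr in Id3KO could show a difference is unknown.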
